A study of Mus musculus with 9 samples.

Results

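The genes described here are 10 transcripts of mouse astrocytes, the star-shaped glia of the brain: Gfap, Vim, Serpina3n, Lcn2 and Timp1, which astrocytes raise when they react to injury or inflammation, and Aqp4, Aldh1l1, Slc1a2, Slc1a3 and S100b, which mark astrocytes at rest as well. They were chosen as a list of names and matched to the GENCODE M21 annotation, in which they are 10 of 55450 genes counted in every library. All 10 passed the filter on low counts, which kept 20892 genes.

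The libraries were made from nigral tissue, the midbrain region that holds the substantia nigra, 5 weeks after a lentivirus had been injected there, and there were 3 libraries in each of 3 groups. The control group (CTR) received the GFP vector, which according to the study's methods codes for a destabilized GFP and was injected into mice of the CX3CR1-CreERT2 line. The CX3 group (3xCX3-Cre) and the DAT group (3xDAT-Cre) both received the Synuclein-expressing vector. In all 3 groups the insert could be switched on only where Cre recombinase was present, which is in microglia and other CX3CR1-expressing cells in the CX3CR1-CreERT2 line and in dopaminergic neurons in the DAT-Cre line. The CX3CR1-CreERT2 mice, CTR and CX3 alike, were given tamoxifen on 4 days to activate Cre. The mice were male, and their age is given as 8 weeks in one place of the study and as 9 weeks, at purchase, in another. No DAT-Cre mice with the GFP vector were analysed here, so between DAT and CTR the vector, the mouse line and the tamoxifen cannot be told apart. The labels do not say whether the 3 libraries of a group came from separate animals, so the p-values measure only the spread between these libraries, which may be technical.

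In the healthy brain, astrocytes clear glutamate from synapses, move water and potassium toward blood vessels and feed neurons. In reactive astrocytes, signals from microglia and from damaged tissue, among them interleukin 6 family cytokines acting through STAT3, raise the intermediate filaments GFAP and vimentin and a set of secreted acute phase proteins. Reactive astrocytes have been described as A1, with many interferon-induced and antigen-presentation genes, or A2, with genes of repair, and some genes rise in both.

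Each library held between 21592817 and 39475428 reads assigned to genes, so that 3 counts, the floor used here for a detectable level, corresponded to 0.0779 to 0.151 CPM (counts as a rate per library total, scaled by TMM, which sets the libraries to a common level by the bulk of their genes). Over 19874 genes, the squared difference between 2 libraries of a group was on average 1.46 to 1.80 times that of random sampling in CTR. In CX3 it was 2.55 times between replicates 2 and 3 and 4.67 and 6.48 times for the pairs with replicate 1. In DAT it was 2.19 times between replicates 1 and 3 and 15.4 and 10.9 times for the pairs with replicate 2, the shallowest library, which stood apart. Between groups it was 36.0 to 42.7 times for CTR and CX3, 87.4 to 150 times for CTR and DAT and 84.8 to 153 times for CX3 and DAT. Cx3cr1, the gene that carries the Cre insertion in the CX3CR1-CreERT2 line, was at 102.9, 101.3 and 102.8 CPM in CTR, at 43.6, 45.3 and 45.0 CPM in CX3 and at 85.6, 78.5 and 86.2 CPM in DAT. Its level thus differed between CTR and CX3, which the study's methods place in the same mouse line.

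Markers of cells outside the astrocytes differed between the groups as well. The summed CPM of 5 choroid plexus genes ranged from 33.5 to 36.2 in CTR, from 1462 to 1572 in CX3 and from 862 to 1032 in DAT, and none of the 5 was at 0 in any group. The 5 pituitary genes summed to 57.6 to 60.2 CPM in CTR, to 3.10 to 3.38 in CX3 and to 15.3 to 21.1 in DAT, with Prl at 0 in DAT. These genes did not move as 1 group. Pomc made up most of the DAT sum, at 17.2 CPM on average there, against 17.9 in CTR and 2.73 in CX3. Gh was at 34.7 CPM in CTR, 0.217 in CX3 and 0.103 in DAT. The 6 microglial genes summed to 690 to 698 CPM in CTR, 458 to 463 in CX3 and 451 to 463 in DAT. The CTR libraries thus differed from both other groups in these lists of cells outside the astrocytes, and this difference and the vector cannot be told apart. For other lists DAT stood apart. The neuron genes summed to 2792 CPM on average in CTR, 3175 in CX3 and 4133 in DAT. In the same order the T cell genes summed to 41.1, 35.0 and 9.97 CPM and the cerebellar granule cell genes to 41.6, 35.5 and 65.5 CPM. The granule cell genes did not move as 1 group either. Cbln1 made up most of their sum, at 38.6, 31.4 and 48.1 CPM, and Fat2 was at 0.569, 1.58 and 14.2 CPM. Cbln3 was at 0.622, 0.680 and 1.48 CPM, Neurod1 at 1.82, 1.75 and 1.61 CPM and Gabra6, near the floor, at 0.0755, 0.0818 and 0.111 CPM. In whole tissue, fewer astrocytes and less RNA per astrocyte cannot be told apart either.

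**Figure D1:**
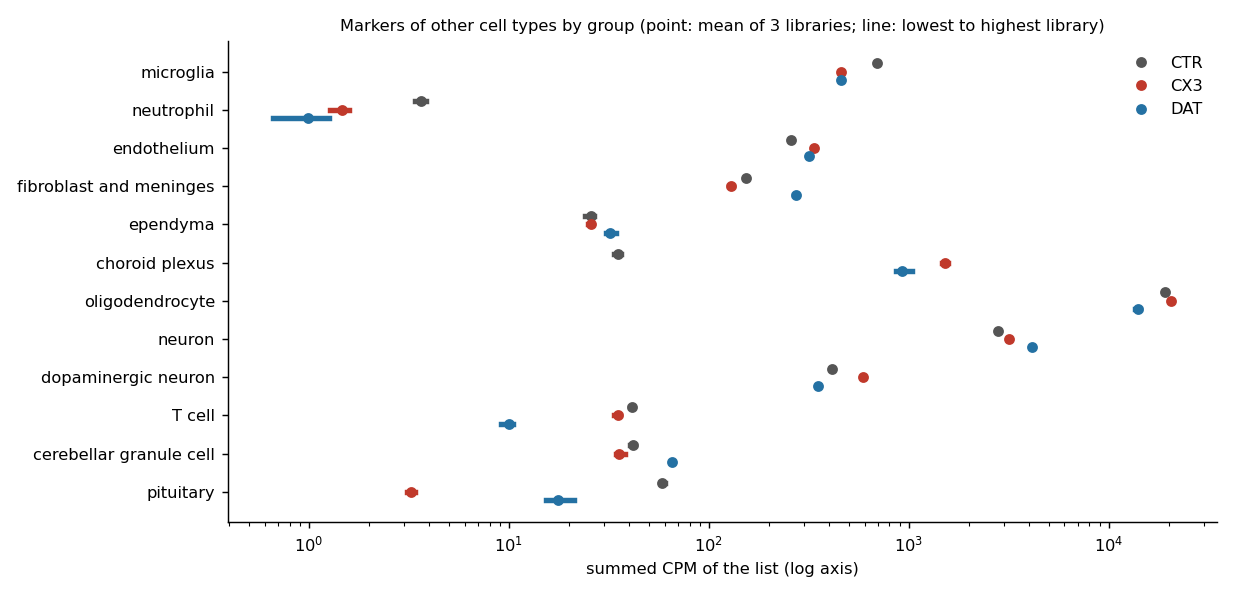
Summed CPM of 12 marker lists (vertical axis) on a log axis, with 1 point for the mean of each group's 3 libraries and a line from the lowest to the highest library. The choroid plexus sum was lowest in CTR (35.0 CPM on average, against 1509 in CX3 and 919.8 in DAT) and the pituitary sum highest there (58.6, against 3.26 and 17.5). Pomc made up 17.2 of the 17.5 CPM of the pituitary sum in DAT.

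The CX3 libraries were compared with CTR to ask what the Synuclein-expressing vector in CX3CR1-expressing cells did to the astrocyte genes, and the DAT libraries with the same CTR libraries for the vector in dopaminergic neurons. The reactive genes were highest in the control libraries, not in the groups with the Synuclein-expressing vector. In CX3 against CTR, 9 of the 10 genes were lower and 0 were higher, where 16.5% of all genes tested were lower and 14% higher (edgeR's quasi-likelihood test, Benjamini-Hochberg adjusted p under 0.05). The gene that did not pass was S100b. In DAT against CTR, 7 of the 10 were lower and 0 higher, where 27.9% of all genes were lower and 32% higher, and the 3 that did not pass were Aldh1l1, Slc1a2 and Slc1a3. The median log2 difference of the 10 genes was -0.79 in CX3 against CTR and -0.82 in DAT against CTR, against 0.00 over all genes tested in each. All 3 libraries of CX3 lay below all 3 of CTR for the 9 genes called, and all 3 of DAT for the 7, a pattern without overlap that 25.4% and 30.6% of all genes tested showed. Both comparisons rest on the same 3 control libraries, so neither is a repeat of the other. A drop of at least 2-fold was seen for the same 4 genes in each, Gfap, Serpina3n, Lcn2 and Timp1, where 2.26% of all genes were lower by that much in CX3 and 12% in DAT.

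**Figure D2:**
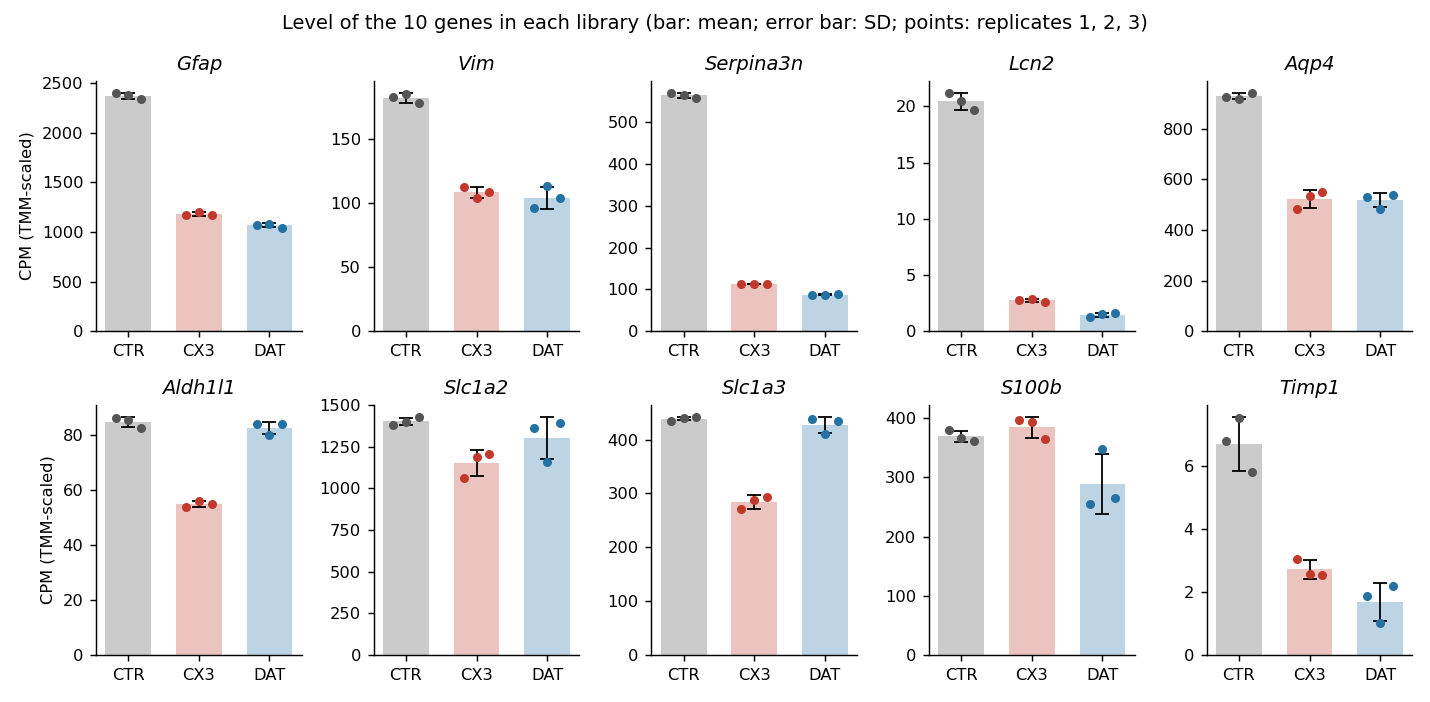
CPM (TMM-scaled, linear axis from 0) of each gene in the 9 libraries, with a bar for the group mean of 3 libraries, an error bar of 1 SD and a point for each library. For Gfap, Serpina3n, Lcn2 and Timp1 the CTR points lie above all others, whereas for Aldh1l1 and Slc1a3 the CX3 points alone lie low, at 54.0 to 56.2 and 270.2 to 294 CPM.

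Gfap (ENSMUSG00000020932.14, chromosome 11 from 102887336 to 102900912 on the minus strand of GRCm38) encodes the glial fibrillary acidic protein, the intermediate filament whose rise is the classical sign of reactive astrocytes. Its level was 2394, 2378 and 2335 CPM in the CTR libraries, 1169, 1201 and 1173 CPM in CX3 and 1073, 1080 and 1043 CPM in DAT. The libraries of the 3 groups did not overlap, with CTR highest and DAT lowest. Gfap fell by 1.00 ± 0.03 on the log2 scale (estimate ± SE, n = 3 libraries a group) in CX3 against CTR, which is 2.01-fold lower (edgeR adjusted p = 2.39e-11). In DAT against CTR it fell by 1.15 ± 0.03, which is 2.22-fold lower (edgeR adjusted p = 2.73e-12). Against DAT, CX3 was 1.11-fold higher (log2 difference 0.15 ± 0.03, edgeR adjusted p = 0.00119), a difference far smaller than that of either group from CTR.

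As Gfap and several other members moved together, the 250 bases before each RefSeq gene start (GRCm38.p6) were searched on both strands for 4 motifs of factors active in astrocytes, and the sequences are shown for the genes the results turn on. The motifs were TTCNNNGAA for STAT factors, the half-sites TTGGC and GCCAA set 5 bases apart for nuclear factor I, TGANTCA for AP-1, and GGGA followed after 1 base by TTTCC for the kappaB site. None of them is contained in another. In this order they were present in 7.02%, 0.0365%, 6.75% and 0.356% of 32851 promoters of the same length. A sequence was at hand for 9 members, all but Aqp4, and 1 of the 9, Slc1a3, held a match. For Gfap, Lcn2, Vim, Aldh1l1 and Slc1a2 the window lies inside the GENCODE span given for the gene. The RefSeq start used for these genes is not the outermost GENCODE start. The Gfap window held none and is shown in lower case, 5′ to 3′, on the minus strand (chr11:102897201-102897450).
Gfap: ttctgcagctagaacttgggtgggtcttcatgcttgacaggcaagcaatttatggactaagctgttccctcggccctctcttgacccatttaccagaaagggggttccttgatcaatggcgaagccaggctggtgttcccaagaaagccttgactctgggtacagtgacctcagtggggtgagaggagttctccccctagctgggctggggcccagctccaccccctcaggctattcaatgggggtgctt
When the window was widened, after seeing this result, to take in the 50 bases after the start as well, Gfap held a STAT match that spans the start, from 2 bases before it to 7 bases after, shown in capitals (chr11:102897184-102897212). Of the promoters of 300 bases, 8.30% held this motif, and no other member gained a match.
Gfap, at the start: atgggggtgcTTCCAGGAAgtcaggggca

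Vim (ENSMUSG00000026728.9, chromosome 2 from 13573927 to 13582826 on the plus strand) encodes vimentin, the filament that assembles with GFAP in reactive astrocytes and is also made by endothelial cells and fibroblasts. It was at 183, 185.6 and 178 CPM in CTR, 112.7, 104.2 and 109 CPM in CX3 and 95.9, 113.2 and 104 CPM in DAT. All CTR libraries were above all others, and those of CX3 and DAT overlapped. The drop was 1.68-fold in CX3 (fell by 0.75 ± 0.06 on the log2 scale, edgeR adjusted p = 3.05e-07) and 1.75-fold in DAT (fell by 0.81 ± 0.06, edgeR adjusted p = 2.82e-08). CX3 and DAT differed by 0.06 ± 0.06, which did not pass the test (edgeR adjusted p = 0.381) but did once DAT replicate 2 was left out (0.14, edgeR adjusted p = 0.00885). The 5 endothelial markers summed to 257 to 259 CPM in CTR, 334 to 340 in CX3 and 316 to 317 in DAT, with none at 0. The 6 fibroblast and meningeal markers summed to 153 to 155 CPM, 126 to 132 and 266 to 275 in the same order, also with none at 0. The endothelial markers did not move as 1 group, with 3 called higher and 1 lower in CX3 than in CTR and 3 higher and 2 lower in DAT. Of the fibroblast markers 3 were lower and 0 higher in CX3, and 4 were higher and 0 lower in DAT. Their part in the result for Vim was not tested.

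Serpina3n (ENSMUSG00000021091.8, chromosome 12 from 104406729 to 104414329 on the plus strand), a secreted serine protease inhibitor of the acute phase response, is one of the strongest markers of reactive astrocytes. It was at 569, 565 and 558 CPM in CTR, 113.3, 112.5 and 113.6 CPM in CX3 and 87.4, 85.7 and 88.0 CPM in DAT. The libraries within a group lay within a few CPM of each other in CX3 and DAT, and the 3 groups did not overlap. Serpina3n was 4.99-fold lower in CX3 than in CTR (fell by 2.32 ± 0.04 on the log2 scale, edgeR adjusted p = 2.49e-14) and 6.48-fold lower in DAT (fell by 2.70 ± 0.04, edgeR adjusted p = 4.66e-15). CX3 was 1.30-fold higher than DAT (log2 difference 0.38 ± 0.04, edgeR adjusted p = 1e-06). Serpina3n belongs to a family of close copies, between which the assignment of single reads is less certain. Its upstream window on the plus strand (chr12:104406458-104406707) held none of the 4 motifs.
Serpina3n: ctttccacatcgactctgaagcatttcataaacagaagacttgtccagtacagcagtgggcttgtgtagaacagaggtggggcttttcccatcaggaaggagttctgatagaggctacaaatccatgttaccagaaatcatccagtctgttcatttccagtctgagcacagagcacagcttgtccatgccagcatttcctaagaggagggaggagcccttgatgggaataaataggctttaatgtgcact

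Lcn2 (ENSMUSG00000026822.14, chromosome 2 from 32384633 to 32388252 on the minus strand) encodes lipocalin 2, a secreted protein that binds bacterial iron carriers and is made by reactive astrocytes and by neutrophils. Its level was 21.2, 20.5 and 19.6 CPM in CTR, 2.75, 2.86 and 2.60 CPM in CX3 and 1.29, 1.51 and 1.58 CPM in DAT, from counts of 589 to 747, 99 to 106 and 30 to 47. The groups did not overlap, and the DAT libraries were the lowest. Lcn2 had the largest drop of the 10 genes in both comparisons, 7.46-fold in CX3 (fell by 2.90 ± 0.09 on the log2 scale, edgeR adjusted p = 9.01e-12) and 14.2-fold in DAT (fell by 3.83 ± 0.10, edgeR adjusted p = 1.59e-12). CX3 was 1.91-fold higher than DAT (log2 difference 0.93 ± 0.13, edgeR adjusted p = 2.64e-05). The 6 neutrophil markers (S100a8, S100a9, Ngp, Ltf, Retnlg and Camp) summed to 3.38 to 3.87 CPM in CTR, 1.28 to 1.58 in CX3 and 0.658 to 1.26 in DAT, none was at 0 in a whole group, and Ngp and Camp were at or under 3 counts in DAT. The sum was lower in both groups than in CTR, as Lcn2 was, from a level well below it. In CX3 4 of the 5 tested markers were lower than in CTR and Retnlg was higher, and in DAT 4 were lower and Retnlg was not called. Their part in the result was not tested. The Lcn2 window on the minus strand (chr2:32387740-32387989) held none of the 4 motifs.
Lcn2: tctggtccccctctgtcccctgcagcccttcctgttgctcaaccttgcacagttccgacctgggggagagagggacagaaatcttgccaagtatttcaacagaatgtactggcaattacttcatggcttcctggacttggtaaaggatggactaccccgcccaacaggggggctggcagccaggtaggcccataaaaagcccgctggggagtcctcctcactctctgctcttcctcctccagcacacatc

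Timp1 (ENSMUSG00000001131.11, chromosome X from 20870166 to 20874735 on the plus strand) encodes a secreted inhibitor of matrix metalloproteinases that reactive astrocytes make after injury. It was at 6.80, 7.53 and 5.80 CPM in CTR, 3.06, 2.57 and 2.53 CPM in CX3 and 1.86, 1.01 and 2.19 CPM in DAT. Behind these levels stood 174 to 274 counts in CTR, 89 to 118 in CX3 and 20 to 68 in DAT, and the 3 groups did not overlap. Timp1 was 2.47-fold lower in CX3 (fell by 1.30 ± 0.17 on the log2 scale, edgeR adjusted p = 4.84e-05) and 3.88-fold lower in DAT (fell by 1.96 ± 0.19, edgeR adjusted p = 7.24e-07) than in CTR. CX3 was 1.57-fold higher than DAT (log2 difference 0.65 ± 0.21, edgeR adjusted p = 0.0151).

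The next 3 genes, Slc1a3, Aldh1l1 and Slc1a2, belong to the everyday work of astrocytes. The CX3 libraries lay below all DAT libraries for Slc1a3 and Aldh1l1, and overlapped with them for Slc1a2. Slc1a3 (ENSMUSG00000005360.14, chromosome 15 from 8634124 to 8710764 on the minus strand) encodes the glutamate transporter GLAST. It was at 435, 439.9 and 441 CPM in CTR, 270.2, 288 and 294 CPM in CX3 and 438, 409.6 and 434 CPM in DAT. The CX3 libraries were below all others, while those of CTR and DAT overlapped. Slc1a3 was 1.54-fold lower in CX3 than in CTR (fell by 0.63 ± 0.04 on the log2 scale, edgeR adjusted p = 1.18e-07) and 1.504-fold lower in CX3 than in DAT (fell by 0.59 ± 0.04, edgeR adjusted p = 4.17e-08). In DAT against CTR the log2 difference was -0.04 ± 0.04 (edgeR adjusted p = 0.465). Slc1a3 was the member with a motif match upstream, a STAT motif 96 to 88 bases before its start, in capitals here (minus strand, chr15:8710808-8711057).
Slc1a3: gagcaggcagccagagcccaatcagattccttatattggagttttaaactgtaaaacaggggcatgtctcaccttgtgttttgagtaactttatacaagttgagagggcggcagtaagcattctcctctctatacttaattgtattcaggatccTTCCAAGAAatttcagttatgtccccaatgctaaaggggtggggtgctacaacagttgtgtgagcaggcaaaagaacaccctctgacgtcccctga

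Aldh1l1 (ENSMUSG00000030088.15, chromosome 6 from 90486427 to 90600203 on the plus strand), a folate enzyme widely used to label astrocytes, followed the same pattern. Its level was 86.4, 85.4 and 82.7 CPM in CTR, 54.0, 56.2 and 55.1 CPM in CX3 and 84.0, 80.2 and 84.1 CPM in DAT. CX3 again lay below both other groups, which overlapped. It was 1.54-fold lower in CX3 than in CTR (fell by 0.62 ± 0.04 on the log2 scale, edgeR adjusted p = 1.54e-07) and 1.503-fold lower than in DAT (fell by 0.59 ± 0.04, edgeR adjusted p = 5.69e-08). DAT against CTR gave -0.04 ± 0.04 (edgeR adjusted p = 0.511). In the annotation 13.4% of the exon bases of Aldh1l1 are shared with 2 other genes, 1 on each strand, so that some of its reads could be assigned to neither.

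Slc1a2 (ENSMUSG00000005089.15, chromosome 2 from 102658659 to 102790784 on the plus strand) encodes GLT-1, the transporter that takes up most of the glutamate of the forebrain. It was at 1382, 1402 and 1427 CPM in CTR, 1061, 1190 and 1206 CPM in CX3 and 1364, 1159 and 1391 CPM in DAT. The CX3 libraries were below CTR, and DAT replicate 2 lay within the CX3 range while the other DAT libraries were above it. Slc1a2 was 1.22-fold lower in CX3 than in CTR (fell by 0.28 ± 0.06 on the log2 scale, edgeR adjusted p = 0.00375), and in DAT against CTR the log2 difference was -0.11 ± 0.06 (edgeR adjusted p = 0.167). CX3 was 1.13-fold lower than DAT (fell by 0.18 ± 0.06, edgeR adjusted p = 0.0248), a call that was lost without CX3 replicate 1 (-0.10), DAT replicate 1 (-0.13) or DAT replicate 3 (-0.11). The call was also lost with DESeq2 (-0.18, adjusted p = 0.054), with the counts of either strand (both -0.11, edgeR adjusted p = 0.171 and 0.151) and with the fit of the 2 groups alone (-0.16, edgeR adjusted p = 0.094). When the libraries were scaled by their size alone, the median of all genes moved by -0.15 in DAT against CTR on the log2 scale, and Aldh1l1 (-0.18), Slc1a2 (-0.25) and Slc1a3 (-0.19) were called lower in that comparison. Relative to that shift the 3 genes were at -0.03, -0.10 and -0.03.

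Aqp4 (ENSMUSG00000024411.10, chromosome 18 from 15389496 to 15410982 on the minus strand) encodes aquaporin 4, the water channel of the astrocyte endfeet that wrap blood vessels. It was at 925, 917 and 941 CPM in CTR, 483, 535 and 549.7 CPM in CX3 and 529, 484 and 539 CPM in DAT. All CTR libraries were above all others, and CX3 and DAT overlapped. The drop was nearly the same in both, 1.78-fold in CX3 (fell by 0.83 ± 0.05 on the log2 scale, edgeR adjusted p = 4.56e-08) and 1.79-fold in DAT (fell by 0.84 ± 0.05, edgeR adjusted p = 7.25e-09). The difference between CX3 and DAT was 0.01 ± 0.05 (edgeR adjusted p = 0.846).

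S100b (ENSMUSG00000033208.7, chromosome 10 from 76253853 to 76261159 on the plus strand), a calcium-binding protein made by astrocytes and also by oligodendrocytes, was the member that was not called lower in CX3 against CTR. It was at 379, 367 and 362 CPM in CTR, 397, 393 and 365 CPM in CX3 and 255.6, 347 and 264.7 CPM in DAT. CTR and CX3 overlapped, and the DAT libraries were the lowest, with replicate 2 well above the other 2. In CX3 against CTR the log2 difference was 0.06 ± 0.09 (edgeR adjusted p = 0.644). In DAT against CTR S100b fell by 0.35 ± 0.09, which is 1.28-fold lower (edgeR adjusted p = 0.00297), and by 0.51 without DAT replicate 2. CX3 was 1.33-fold higher than DAT (log2 difference 0.41 ± 0.09, edgeR adjusted p = 0.000947). The summed CPM of 5 oligodendrocyte markers, of which none was at 0, was 19116 to 19192 in CTR, 20420 to 20802 in CX3 and 13571 to 14395 in DAT. It had the same order of groups as S100b, and its part in the result was not tested.

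**Figure D3:**
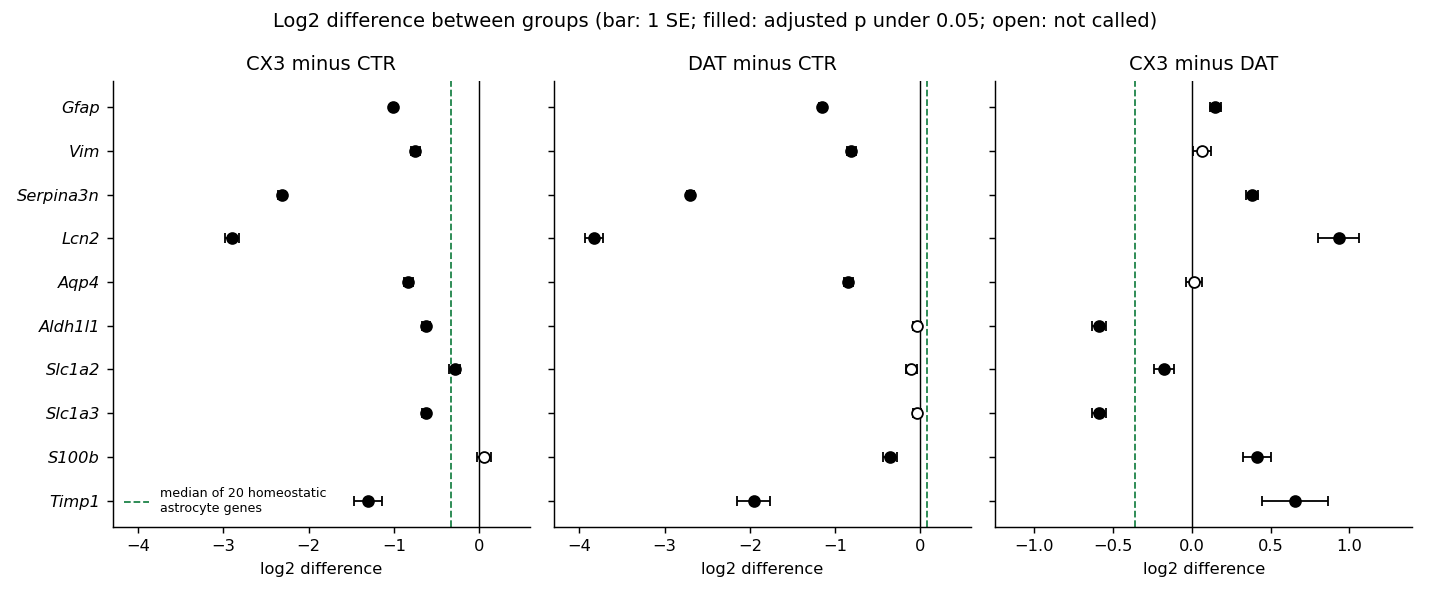
Log2 difference of each gene (horizontal axis) in the 3 comparisons, with 1 SE as the bar, filled points for adjusted p under 0.05 and a dashed line at the median of 20 homeostatic astrocyte genes. Lcn2 lies farthest to the left in both comparisons with CTR (-2.90 and -3.83), and Aldh1l1, Slc1a2 and Slc1a3 lie left of 0 in CX3 minus DAT while Lcn2, Timp1, S100b, Serpina3n and Gfap lie right of it.

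Between the 2 groups with the Synuclein-expressing vector, 5 of the 10 genes were higher in CX3 than in DAT (Gfap, Serpina3n, Lcn2, S100b and Timp1) and 3 were lower (Aldh1l1, Slc1a2 and Slc1a3), where 27.6% of all genes were higher and 31.3% lower. The libraries of CX3 were all above those of DAT for 5 members and all below for 2, a pattern without overlap that 28.8% and 32.2% of all genes showed. The vector was the same in both groups, and the mouse line with its tamoxifen was not, so these cannot be told apart. Vim and Aqp4 were not called, and the call of Slc1a2 was lost under several alternatives.

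Compared per length of all annotated exons of a gene joined, as mean FPKM, the order of the members changed between the groups. This length, 2623 bases for Lcn2, need not be that of the transcript made, and the places of the genes depend on it. In CTR Gfap led with 562 ± 7 FPKM (SD, n = 3), followed by Serpina3n with 273 ± 3, S100b with 248.8 ± 6, Aqp4 with 149 ± 2, Slc1a2 with 107 ± 2 and Slc1a3 with 51.4 ± 0.4. Vim was at 38.4 ± 0.8, Aldh1l1 at 18.8 ± 0.4, and Lcn2 (7.79 ± 0.29) and Timp1 (7.55 ± 0.98) were at a level that did not differ beyond their spread. In CX3 Gfap (280.0 ± 4.1) was still above S100b (259.3 ± 11.9), whereas Serpina3n had moved from the second to the fifth place at 54.8 ± 0.3, behind Slc1a2 (87.7 ± 6.1) and Aqp4 (83.8 ± 5.6), whose levels lay within their spread of each other. In DAT Serpina3n stood in the sixth place at 42.2 ± 0.6, below Slc1a3 at 50.04 ± 1.80. Lcn2 came last in CX3 (1.04 ± 0.05) and in DAT (0.556 ± 0.058).

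The members were also set against 20 homeostatic astrocyte genes of the same libraries, such as the gap junction gene Gja1 and the potassium channel gene Kcnj10. Of these 20, 15 were lower, 1 higher and 4 not called in CX3 against CTR, where 16.5% of all genes were lower and 14% higher. The median log2 difference of the 20 was -0.33. In DAT against CTR 7 were lower, 10 higher and 3 not called, where 27.9% of all genes were lower and 32% higher, with a median of 0.08. In CX3 against DAT all 20 were lower, where 31.3% of all genes were, with a median of -0.36. After subtracting these medians, Gfap was at -0.67 in CX3 against CTR and -1.23 in DAT against CTR, Serpina3n at -1.98 and -2.78, Lcn2 at -2.57 and -3.91, Timp1 at -0.97 and -2.04, Vim at -0.41 and -0.89, and Aqp4 at -0.50 and -0.92. Aldh1l1 was at -0.29 and -0.12 and Slc1a3 at -0.29 and -0.12, so that these 8 genes were below the homeostatic median in both comparisons. Slc1a2 was at 0.05 in CX3 against CTR and -0.19 in DAT against CTR, and S100b at 0.39 and -0.43. These are differences with no test. Within the homeostatic list, Clu, the secreted chaperone clusterin, fell most in both comparisons, by 1.44 ± 0.04 in CX3 and 0.75 ± 0.04 in DAT. Agt, the precursor of angiotensin, fell by 1.06 ± 0.05 in CX3, and F3, tissue factor, by 0.75 ± 0.05. In DAT the GABA transporter gene Slc6a11 rose by 0.61 ± 0.04 and the transcription factor gene Sox9 by 0.60 ± 0.05 over CTR.

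**Figure D4:**
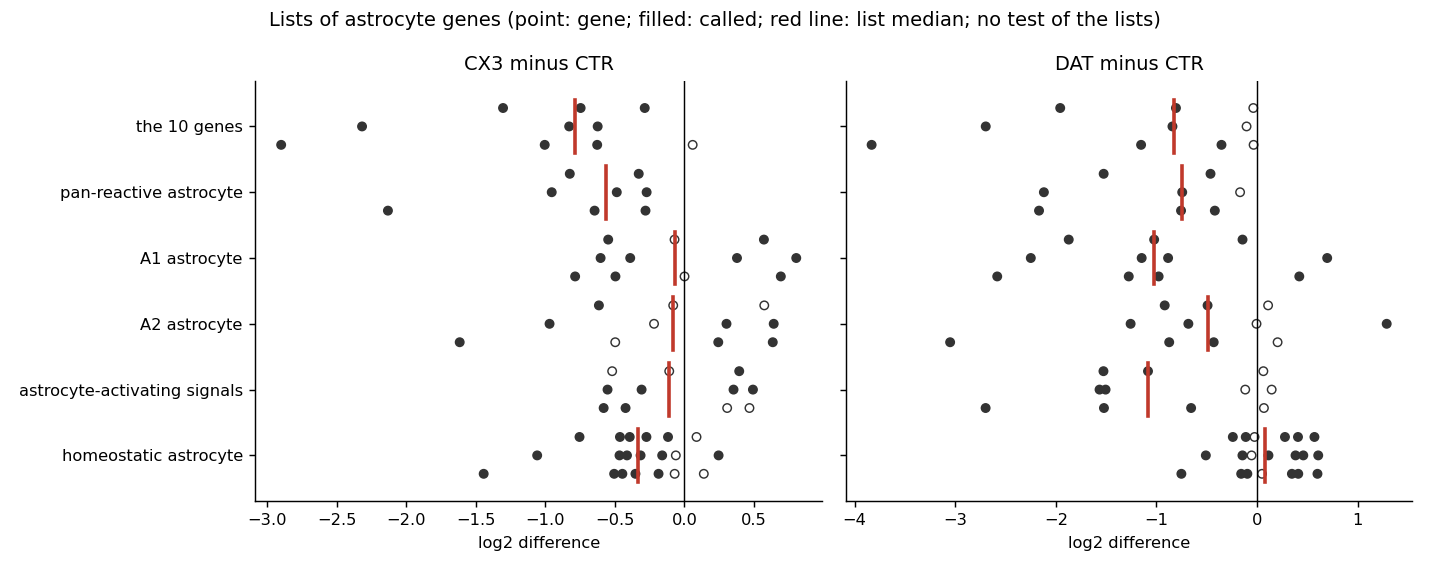
Log2 difference (horizontal axis) of every tested gene of 6 lists in CX3 minus CTR and DAT minus CTR, with filled points for called genes and a red line at each list's median. The median of the 10 genes lies at -0.79 and -0.82, and that of the homeostatic list at -0.33 and 0.08.

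Of the 8 pan-reactive genes, which rise in both described types of reactive astrocyte, 8 were lower in CX3 and 7 in DAT than in CTR, and 0 were higher, with medians of -0.57 and -0.75. Over all genes tested, 16.5% were lower and 14% higher in CX3, and 27.9% lower and 32% higher in DAT. Steap4, a metal reductase induced by cytokines, was at 6.54, 4.92 and 5.20 CPM in CTR, against 0.924 to 1.45 CPM in CX3 and 0.965 to 1.76 CPM in DAT, and fell by 2.13 ± 0.19 and 2.12 ± 0.21 on the log2 scale. Osmr, the receptor for oncostatin M, fell by 0.82 ± 0.06 in CX3 and 1.52 ± 0.07 in DAT. Hspb1, a small heat shock protein gene, fell by 0.95 ± 0.10 in CX3. Cxcl10, an interferon-induced chemokine gene, fell by 2.17 ± 0.06 in DAT.

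Genes called in both directions were found among the A1 and A2 genes, as among all genes tested. Of all genes, 16.5% were lower and 14% higher in CX3, and 27.9% lower and 32% higher in DAT. Of 12 A1 genes, 11 were tested, and 4 were higher and 5 lower in CX3 than in CTR (median -0.07), while 2 were higher and 9 lower in DAT (median -1.02). Iigp1, an interferon-induced GTPase gene, was at 153 to 154 CPM in CTR, 255 to 281 CPM in CX3 and 24.8 to 26.7 CPM in DAT, so that it rose by 0.80 ± 0.05 in CX3 and fell by 2.58 ± 0.05 in DAT. H2-T23, a nonclassical MHC class I gene, rose by 0.69 ± 0.07 in CX3, and Ggta1, a galactosyltransferase gene, fell by 0.79 ± 0.07. In DAT Gbp2, another interferon-induced GTPase gene, fell by 2.25 ± 0.05 and Psmb8, an immunoproteasome subunit, by 1.87 ± 0.07. Microglia and endothelial cells make these interferon-induced genes too, and the microglial markers were lower in both groups than in CTR (5 and 6 of 6 called lower), and their part in the result was not tested.

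Of 12 A2 genes, 11 were tested, and 4 were higher and 3 lower in CX3 (median -0.08), while 1 was higher and 7 lower in DAT (median -0.49). Tgm1, a transglutaminase gene, was at 7.39 to 8.33 CPM in CTR, 2.40 to 2.65 CPM in CX3 and 0.790 to 1.07 CPM in DAT, and fell by 1.62 ± 0.11 in CX3 and fell by 3.05 ± 0.14 in DAT. Cd109 fell by 0.97 ± 0.10 and 1.26 ± 0.11. Clcf1, a cytokine of the interleukin 6 family, rose by 0.64 ± 0.15 in CX3, and Sphk1, a sphingosine kinase gene, rose by 1.29 ± 0.10 in DAT.

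Signals that act on astrocytes were measured in the same libraries, and 11 of 13 listed genes were tested. In CX3 against CTR 3 were higher and 4 lower (median -0.11), where 14% of all genes were higher and 16.5% lower. In DAT against CTR 0 were higher and 7 lower (median -1.08), where 32% of all genes were higher and 27.9% lower. Il1a, which microglia release to drive the A1 state, rose by 0.49 ± 0.15 in CX3 (2.27 to 3.27 CPM in CTR, 3.55 to 4.23 CPM in CX3), and the complement gene C1qa fell by 0.55 ± 0.07 (489 to 517 CPM in CTR, 335 to 359 CPM in CX3). Il6st, the shared receptor chain of the interleukin 6 family, fell by 0.58 ± 0.07 in CX3. In DAT Tnf fell by 2.70 ± 0.31, C1qc by 1.57 ± 0.06 and C1qa by 1.53 ± 0.07. The value for Tnf rests on 4 to 7 counts in the DAT libraries, near the floor of 3 counts, and 42 to 54 in CTR. Stat3, which carries interleukin 6 family signals to the Gfap gene, did not pass the test in either (-0.11 ± 0.05 and -0.12 ± 0.05). Socs3, a target and inhibitor of that pathway, rose by 0.39 ± 0.09 in CX3 and fell by 0.66 ± 0.10 in DAT. Other cells of the tissue may add to these levels, and the part of the pathway in the result for Gfap was not tested.

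Among 10877 genes with a mean of at least 10 CPM over the libraries, the 5 whose pair of log2 differences from CTR lay nearest that of Gfap were Ifih1 (-0.996 in CX3 and -1.11 in DAT), Hist1h2be (-1.03 and -1.21), Hmox1 (-0.95 and -1.04), Bfsp2 (-0.87 and -1.16) and Mt1 (-1.13 and -1.203). The likeness is a distance over 2 comparisons that share their controls, from 0.0449 for Ifih1 to 0.136 for Mt1, and it describes these 9 libraries only. Ifih1 encodes a sensor of double-stranded RNA, Hmox1 heme oxygenase 1 and Mt1 metallothionein 1.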

How the data were processed

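RNA was taken from nigral tissue of 9 mouse samples, 3 in each of 3 groups assigned from the labels, and sequenced after a stranded mRNA preparation. The deposited files hold raw counts of reads per gene in the layout of STAR's own gene counting, and the authors name Trimmomatic, STAR, featureCounts, DESeq2 and the mm10 build, with versions not given in the sources used here. Each file gives counts without strand and for each strand. The column without strand was used, since the reverse strand held 49.8% to 49.9% of the stranded counts in every library, so that reads of overlapping genes on opposite strands cannot be told apart. Rows that name no gene were left out. Unmapped reads were 13.8% to 22.0% of all reads, and reads outside genes were 9.29% to 9.46% of mapped reads in CTR, 7.89% to 8.97% in CX3 and 5.20% to 5.34% in DAT.

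Gene names came from GENCODE M21, which held all 55450 identifiers. Counts of 20892 genes that passed edgeR's filterByExpr were scaled by TMM and fitted with edgeR 4.0.16 (quasi-likelihood test, R 4.3.3) over all 9 libraries with group as the only term, and p-values were adjusted by Benjamini-Hochberg over all genes tested and called under 0.05. The fit was run on simulated counts drawn from its own model with independent libraries. That run checks the code and cannot show whether the model holds for these libraries. CPM and FPKM are TMM-scaled, and FPKM uses the length of all annotated exons of a gene joined. The floors cover counting error only, whereas SDs hold the spread between the libraries of a group. The SEs come from the fit over all 9 libraries, so that the spread within DAT, with its replicate 2, also enters those of CX3 against CTR. For S100b in CX3 against CTR the SE was 0.087, and 0.035 in the fit of those 2 groups alone. A list was described by its counts and median, without a test. Alternatives were DESeq2 1.42.0, other scalings, filters, strands and thresholds, fits of the compared groups alone, a replicate block and leaving out each library. Named genes were all members, the 3 called genes with the largest absolute log2 difference in each list and each comparison with CTR, and the 5 genes nearest Gfap. Stat3, Socs3 and the marker genes were named in addition, after their values were seen. The members and lists were chosen with earlier results of these data known. Promoter sequences were from RefSeq on GRCm38.p6. Some items are not reported here.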

Additional observations from a re-analysis of the deposited data

How the results depend on the processing

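Over the alternatives to the values of the single members, 449 kept direction and side of the threshold, 12 gained a call, 15 lost one and 4 changed sign. Testing against a log2 difference of 0.5 instead of 0 left 641 of 6367 genes called in CX3 against CTR, 4617 of 12520 in DAT against CTR and 4592 of 12311 in CX3 against DAT, because that test asks for larger changes. It left 7 of 9 members lower in CX3 against CTR, without Aldh1l1 and Slc1a2, where 2.06% of all genes were lower. In DAT against CTR it left 6 of 7, without S100b, where 12.3% of all genes were lower. In CX3 against DAT it left 1 of 5 members higher and 2 of 3 lower. The sign changes were those of Aqp4 in CX3 against DAT, near 0 throughout (0.0132, with -0.0077 without CX3 replicate 2, -0.0020 without CX3 replicate 3 and -0.0207 without DAT replicate 2, in a range of -0.0207 to 0.0887 over the libraries left out), and of Slc1a2 in CX3 against DAT with libraries scaled by size alone (0.0135, against -0.18). That scaling moved the median of all genes by 0.04 in CX3 against CTR, -0.15 in DAT against CTR and 0.20 in CX3 against DAT, and the share of higher genes among those called from 45.9% to 58.9%, from 53.4% to 37.8% and from 46.8% to 66.7%. Under it 10 members were lower in DAT than in CTR, with 38.5% of all genes lower, and with the counts of the reverse and the forward strand 9 and 10 members were, with 27.3% of all genes lower in each. Leaving out each library in turn gave 4638 to 5685, 11259 to 13389 and 11265 to 13254 genes called in the 3 comparisons in the same order, and 9, 7 and 2 to 3 members lower. The same-lettered libraries did not deviate together (correlations from -0.34 to 0.11 over 9 pairs, against -0.30 to 0.36 over 18 pairs with different letters), so the letters are taken as names only. With the letter as a replicate block 5805, 12144 and 11955 genes were called, and the member counts were the same. The depth limits Lcn2 and Timp1 most, with as few as 30 and 20 counts in a DAT library.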
